A study of Mus musculus with 24 samples.

Results

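Genes that mark the germ layers and the exit from naive pluripotency, 10 in all, were followed through an allelic series of huntingtin (Htt) in mouse cells: T, Eomes, Mixl1, Gata4, Gata6, Sox17, Foxa2, Fgf5, Lefty1 and Lefty2. They were chosen by gene symbol, and all 10 were among the 17501 genes of the embryonic stem cell (mESC) table, where 9 passed the filter on low values. In neural progenitor cells (NPC) 9 were among the 16024 genes listed, and 4 passed. RNA sequencing covered 24 libraries, 12 of each cell type, with 2 biological samples for each of 6 genotypes. These were wild type (WT), Htt knockout (KO), and the heterozygous Hdh CAG knock-in lines Q20, Q50, Q92 and Q111, named for the repeat length of 1 Htt allele. The sample titles give 92 repeats for the third line, whereas the growth protocol gives 89. The mESC were grown with serum and leukaemia inhibitory factor (LIF) on irradiated mouse feeder cells, and the NPC were derived from mESC on gelatin and expanded with FGF and EGF on laminin. The labels do not say whether the WT and KO cells share a parental line with the knock-in cells, nor whether the KO affects both alleles, and every genotype was 1 line as far as the labels say.

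Embryonic stem cells in serum and LIF hold a naive state that a few cells leave spontaneously. Nodal, a ligand of the TGF-beta family, acts through SMAD2 and SMAD3 on targets that include Lefty1 and Lefty2, whose secreted products block Nodal in a feedback loop. Fgf5 is induced when cells pass to the primed, epiblast-like state. T and Eomes are T-box factors and Mixl1 a homeobox factor of the primitive streak, from which mesoderm and definitive endoderm form. Gata4, Gata6 and Sox17 encode regulators of primitive endoderm, the extraembryonic lineage that arises beside the epiblast, and together with Foxa2 they also act in definitive endoderm.

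The promoters of T, Eomes and Fgf5 are shown because these genes were higher together in the Q20 NPC. Each window runs from 250 bases before to 50 bases after the RefSeq start site in GRCm38.p6, on the plus strand, at chr17:8434173-8434472 for T, chr9:118477939-118478238 for Eomes and chr5:98253934-98254233 for Fgf5. Capitals mark matches, on either strand, to short motifs of common promoter elements and of the factors discussed here.
T: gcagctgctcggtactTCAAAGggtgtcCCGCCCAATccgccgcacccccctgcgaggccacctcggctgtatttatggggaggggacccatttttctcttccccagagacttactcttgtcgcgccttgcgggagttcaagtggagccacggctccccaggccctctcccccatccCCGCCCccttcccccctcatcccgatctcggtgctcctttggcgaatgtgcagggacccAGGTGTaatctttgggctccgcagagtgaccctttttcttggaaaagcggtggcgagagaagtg
Eomes: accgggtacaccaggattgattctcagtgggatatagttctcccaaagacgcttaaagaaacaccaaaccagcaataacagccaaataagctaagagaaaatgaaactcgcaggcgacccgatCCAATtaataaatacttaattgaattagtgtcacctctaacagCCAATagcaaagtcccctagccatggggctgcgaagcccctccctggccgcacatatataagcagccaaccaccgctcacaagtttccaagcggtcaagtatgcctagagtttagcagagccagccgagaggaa
Fgf5: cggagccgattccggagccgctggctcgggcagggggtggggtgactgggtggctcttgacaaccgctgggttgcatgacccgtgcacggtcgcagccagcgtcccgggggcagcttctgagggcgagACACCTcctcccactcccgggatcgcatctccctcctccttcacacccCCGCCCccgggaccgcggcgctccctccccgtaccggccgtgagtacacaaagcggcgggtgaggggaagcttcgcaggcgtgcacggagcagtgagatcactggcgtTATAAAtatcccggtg
The T-box core AGGTGT, the motif that T and Eomes proteins themselves read, was matched 14 bases upstream of the T start and 122 bases upstream of the Fgf5 start, and 13.7% of 32851 mouse promoter windows of this length held it. The TCF/LEF core CTTTGA, which Wnt signalling acts through, was matched 234 bases upstream of T alone, and 16% of all windows held it. The Sp1 box GGGCGG was matched at 2 places in T, where 1 overlapped the single match to CCAAT, and at 1 place in Fgf5, against 35.7% of all windows. Eomes held 2 matches to CCAAT, which 37.4% of all windows held, and no exact match to the other motifs. The letters TATAAA, searched for the TATA box, were matched in Fgf5 alone, 35 bases downstream of the start, against 13.6% of all windows. Only the exact letters of each motif were searched. The run TATATAAG in the Eomes window, which resembles the TATA motif, was thus not marked. Neither the SMAD element CAGAC, present in 49.6% of all windows, nor the core GATA motif AGATAA, present in 11.2%, was matched in these windows, which says only that those letters are not there.

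The values are normalised CPM (counts scaled to library size), from which the whole read numbers could be recovered: 58546211 to 81502284 reads per mESC library and 48525333 to 118038952 per NPC library. Htt itself was read at 139 and 68.5 CPM in the mESC libraries labelled KO against 124 and 113 in WT, so the library labelled KO 1 was not below WT. In NPC it was at 100.1 and 94.9 CPM in KO against 137 and 177 in WT. Whether the counted exons lie outside the altered part of the gene was not tested. Pou5f1 was read at 280 to 880.0 CPM in every mESC library. In NPC Pax6 was read at 26.5 to 64.9 CPM, while Pou5f1 stood at 90.1 and 87.4 CPM in the Q20 libraries and at 0 to 0.405 in the other 10. Differences below are limma estimates on log2(CPM + 1), adjusted by Benjamini-Hochberg over all genes that reached 1 CPM in at least 2 libraries of the table, and a gene is called at an adjusted p under 0.05.

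In mESC the Nodal antagonists were by far the most abundant members. Per kilobase of exon, Lefty1 averaged 48.6 ± 38.5 CPM and Lefty2 29.7 ± 17.1 (SD, n = 12 libraries). Their ranges overlapped each other and did not reach that of Eomes, which averaged 1.36 ± 0.51. Gata4 at 1.18, Fgf5 at 0.721, Gata6 at 0.451, T at 0.339, Foxa2 at 0.292, Mixl1 at 0.223 and Sox17 at 0.175 CPM per kilobase followed, and each range overlapped that of the gene above it. Lefty1 (chr1:180935022-180938400, plus strand) and Lefty2 (chr1:180893108-180899103, plus strand) are neighbouring paralogs, and 173 windows of 75 bases occur in transcripts of both, 11.2% of those of Lefty1 and 7.21% of those of Lefty2. How such reads were counted is not given in the sources used here, so part of the signal of 1 gene may belong to the other.

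Lefty1 separated by replicate number in every genotype. Replicate 1 read 137 CPM in WT, 114 in KO, 114 in Q20, 152 in Q50, 227 in Q92 and 118 in Q111. Replicate 2 read 15.1, 18.4, 49.7, 26.9, 23.1 and 32.2 CPM in the same order. All 6 replicate 2 libraries were thus below all 6 replicate 1 libraries, and the means were 143 ± 43.5 CPM in replicate 1 and 27.6 ± 12.4 in replicate 2 (SD, n = 6), a 5.2-fold ratio. The fitted difference of replicate 2 from replicate 1, with genotype in the model, was −2.39 ± 0.26 (SE, log2 scale, limma adjusted p = 0.000451).

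Lefty2, the second Nodal antagonist, read 137, 89.8, 64.3, 102, 146 and 113 CPM in replicate 1 of WT, KO, Q20, Q50, Q92 and Q111. In replicate 2 it read 33.2, 21, 52.9, 31.4, 27.6 and 112 CPM. It was lower in replicate 2 in 6 of 6 genotypes, but the drop was small in Q20 and nearly nil in Q111, where the groups overlap. The difference was −1.40 ± 0.33 on the log2 scale (limma adjusted p = 0.0118).

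Fgf5, a secreted growth factor of the primed epiblast (chr5:98254184-98277030, plus strand), moved the same way at a much lower level. Replicate 1 held 4.38 CPM in WT, 1.39 in KO, 2.06 in Q20, 0.816 in Q50, 1.35 in Q92 and 6.83 in Q111. Replicate 2 held 0.266, 0.292, 1.89, 0.568, 0.293 and 1.51 CPM in that order. Replicate 2 was the lower in 6 of 6 genotypes, by little in Q20 and Q50, and the 2 sets overlapped. The difference of −0.96 ± 0.27 on the log2 scale was called (limma adjusted p = 0.0228). It was not called when either Q92 library or either Q111 library was left out, with adjusted p from 0.0503 to 0.0649, or with genotype left out of the model (0.0534).

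Eomes (chr9:118478212-118486132, plus strand) moved in the opposite direction. Its values were 2.88, 4.64, 3.91, 4.84, 3.41 and 3.90 CPM in replicate 1 of WT, KO, Q20, Q50, Q92 and Q111, and 8.66, 9.47, 5.73, 6.97, 7.58 and 5.89 in replicate 2. The lowest replicate 2 library stood above the highest replicate 1 library. The means were 3.93 ± 0.735 and 7.38 ± 1.49 CPM (SD, n = 6), and the difference was 0.76 ± 0.15 on the log2 scale (limma adjusted p = 0.00475).

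**Figure D1:**
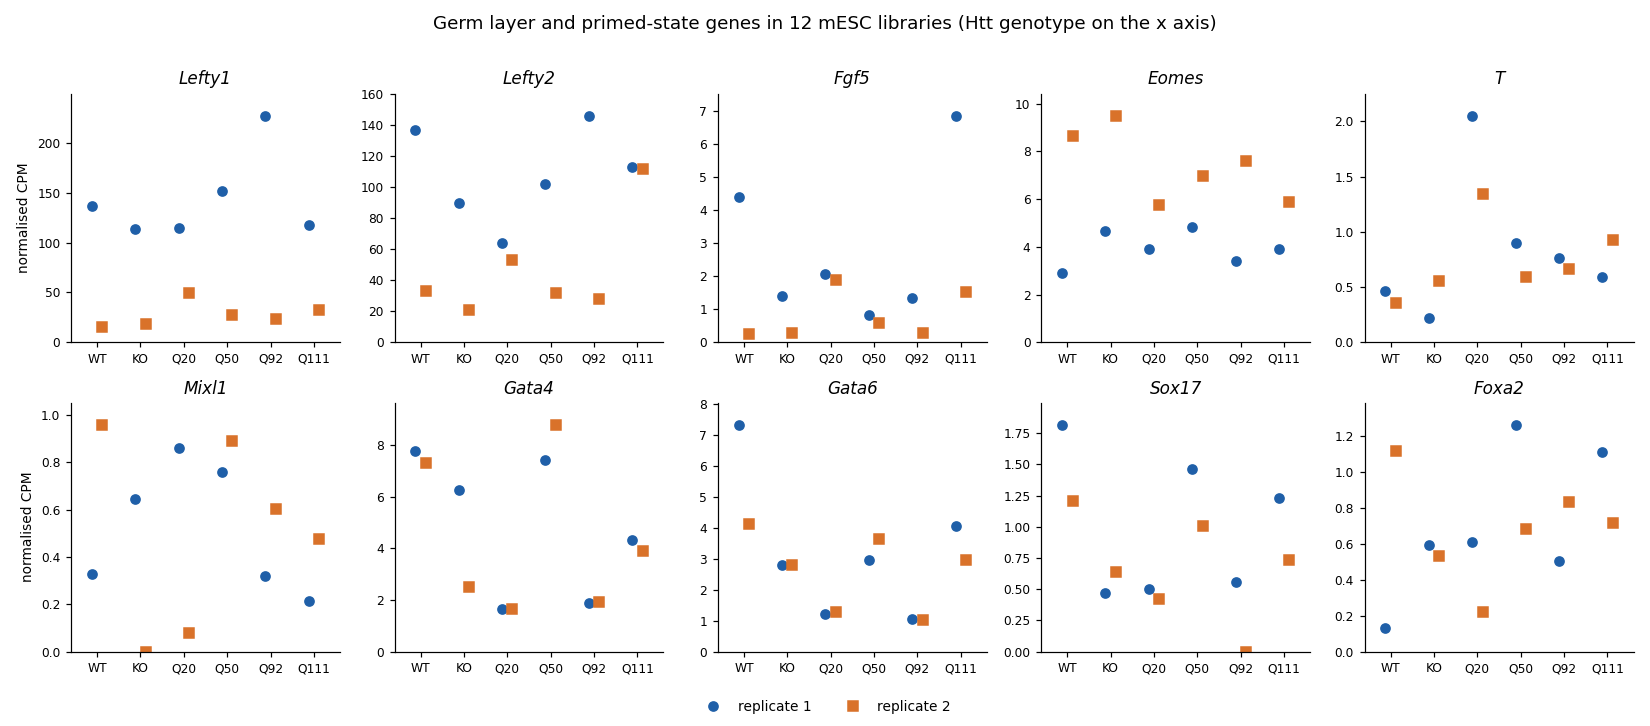
Normalised CPM (vertical axis, from 0, a separate scale in each panel) of the 10 genes in each mESC library, by Htt genotype, with 1 point per library. Lefty1 lies between 114 and 227 CPM in replicate 1 (circles) and between 15.1 and 49.7 in replicate 2 (squares). For Gata4 and Gata6 both replicates of Q20 and of Q92 are the lowest, while other genotypes overlap.

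These 4 genes were the called members among 9 tested between the replicate numbers, where 43.3% of all 13916 genes were called, so the share of members called was near that of the whole table. The labels do not say what the replicate numbers stand for. T, Foxa2, Gata4, Gata6 and Sox17 were not called, and T, for example, was lower in replicate 2 in 4 genotypes and higher in 2.

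**Figure D2:**
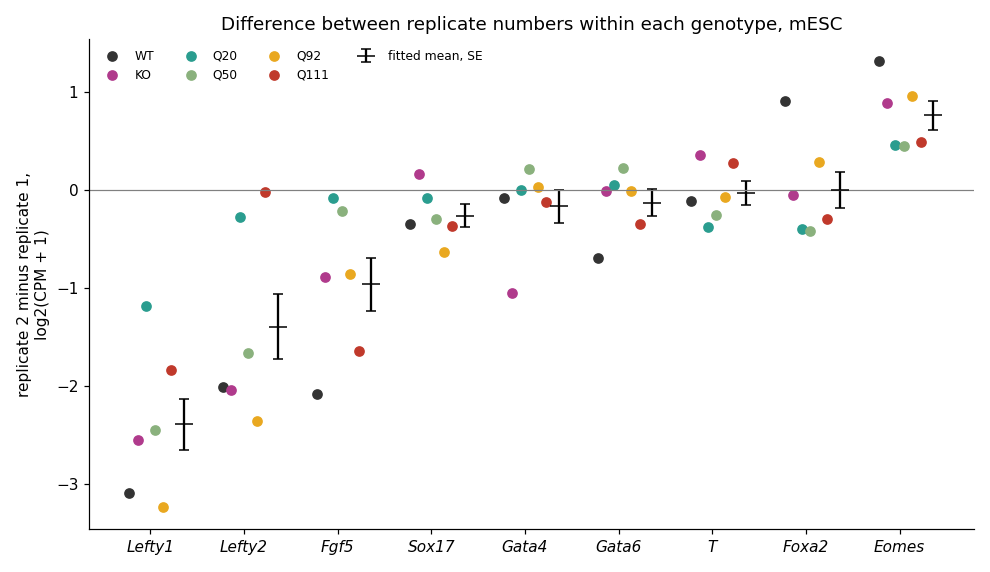
Difference of replicate 2 from replicate 1 on the log2(CPM + 1) scale for the 9 tested genes, with 1 coloured point per genotype and the fitted mean with its SE in black. Lefty1, Lefty2 and Fgf5 have all 6 points below 0 and Eomes has all 6 above, while the other 5 genes have points on both sides.

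Nodal pathway genes other than Lefty1 and Lefty2 were called about as often as any gene between the replicate numbers. Of 20 tested, 7 fell and 2 rose in replicate 2, or 45%, against 43.3% of all genes, of which 22.8% were called lower and 20.5% higher. Their median difference was −0.19 against 0.00 over all genes. Bambi, a pseudoreceptor that blunts TGF-beta signals, fell by 0.67 on the log2 scale (limma adjusted p = 0.00112), and Gdf3, a Nodal-related ligand, rose by 0.68 (limma adjusted p = 0.00206). Nodal itself, named here after its values were seen, had medians of 58.9 and 70.4 CPM and was not called (limma adjusted p = 0.217).

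Of 20 primed and formative genes tested, Fgf5 among them, 4 rose and 3 fell in replicate 2. Otx2, a homeobox factor of the primed epiblast, fell by 1.46 on the log2 scale (limma adjusted p = 0.000571), with 31.0 to 73.3 CPM in replicate 1 and 13.1 to 28.2 in replicate 2. Etv4, an ETS factor downstream of FGF signalling, rose by 1.90 (limma adjusted p = 0.000313). Of 12 primitive streak and mesoderm genes other than T and Eomes, 8 rose and 0 fell, or 66.7%, with a median of 0.61. Kdr, a receptor of vascular endothelial growth factor, rose by 1.71 (limma adjusted p = 0.000283) and the ligand gene Bmp4 by 1.58 (limma adjusted p = 0.000568), whereas T was at −0.03 (limma adjusted p = 0.847).

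Naive pluripotency genes were called in 53.3% and core ones in 55.6% of those tested, against the 43.3% of all genes. Of 15 naive genes 8 rose and 0 fell in replicate 2, among them Klf5, a Krüppel-like factor (1.48, limma adjusted p = 0.000397), Stat3, the transducer of LIF (1.25, limma adjusted p = 0.000272), and Zfp42, also called Rex1 (0.66, limma adjusted p = 0.000197). Of 9 core pluripotency genes 4 rose, led by Sall4 at 1.48 and with Pou5f1 at 0.74, and Dppa5a fell by 0.53. Primitive endoderm genes were mixed, with 4 of 21 higher and 8 lower. Of 18 fibroblast genes that could mark feeder cells 6 rose and 2 fell, and their summed level was 507 to 1092 CPM in replicate 1 and 435 to 1047 in replicate 2. The part of feeder RNA in these differences was not tested.

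**Figure D3:**
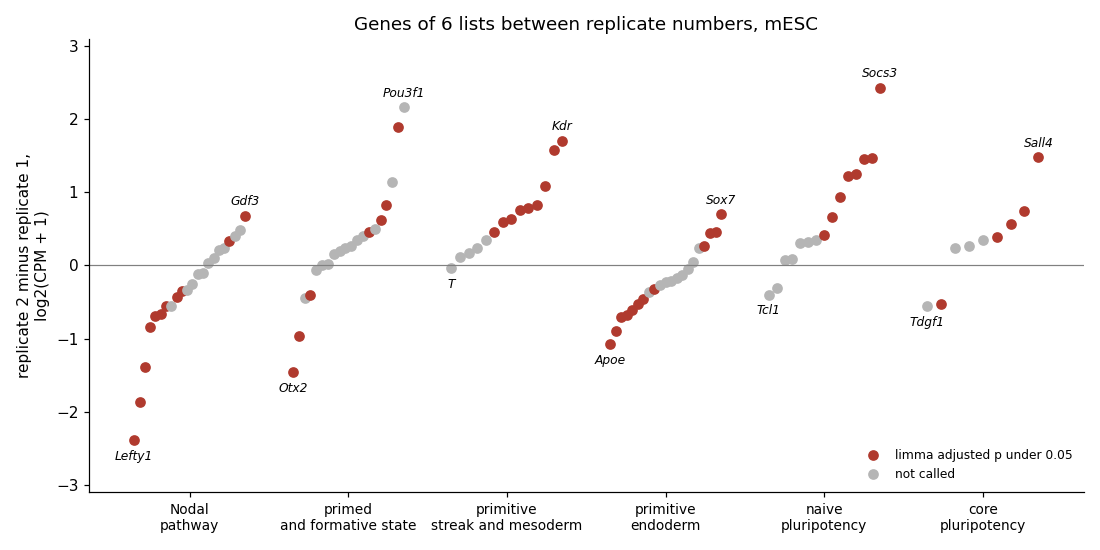
Difference of replicate 2 from replicate 1 in mESC on the log2(CPM + 1) scale for each tested gene of 6 lists, ordered within each list, with called genes in red and the lowest and highest gene named. Every called naive pluripotency and streak gene lies above 0, while 9 of the 11 called Nodal pathway genes, Lefty1 lowest, lie below.

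Gata4 and Gata6 were low in both libraries of Q20 and of Q92, although the test over all 6 genotypes called neither without the replicate block. Gata4 (chr14:63198922-63271692, minus strand) read 7.78 and 7.29 CPM in the WT libraries, 6.27 and 2.51 in the libraries labelled KO, 1.65 and 1.65 in Q20, 7.43 and 8.76 in Q50, 1.87 and 1.94 in Q92, and 4.33 and 3.91 in Q111. Q20 and Q92 were lowest, WT and Q50 highest, and the ranges of WT and Q50 overlapped each other. Gata6 (chr18:11052064-11085635, plus strand) read 7.32 and 4.14 CPM in WT, 2.81 and 2.78 in KO, 1.20 and 1.28 in Q20, 2.97 and 3.64 in Q50, 1.05 and 1.03 in Q92, and 4.05 and 2.96 in Q111. Here too Q20 and Q92 were the lowest lines and WT the highest, with KO, Q50 and Q111 between.

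Sox17 (chr1:4490931-4497354, minus strand) was scarcer. It read 1.81 and 1.20 CPM in WT, 0.467 and 0.636 in KO, 0.504 and 0.418 in Q20, 1.47 and 1.01 in Q50, and 1.23 and 0.730 in Q111. In Q92 it was at 0.557 CPM, or 33 reads, in replicate 1 and was listed at 0 in replicate 2. The counting tool is not given in the sources used here, and whether an exact 0 is a count or a failed estimate was not tested. Sox17 was lower in replicate 2 in 5 of 6 genotypes, and the test over all 6 genotypes did not call it (limma adjusted p = 0.46, and 0.0684 with the replicate block). Of its exonic bases 16.8% overlap an opposite-strand transcript, and the use of strand in counting is not given in the sources used here. After removal of each replicate number's mean, the 3 genes correlated across the 12 libraries with Pearson's r of 0.84 for Gata4 and Gata6, 0.86 for Gata6 and Sox17 and 0.76 for Gata4 and Sox17. These libraries share lines and the values are low, so the coefficients are descriptive.

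**Figure D4:**
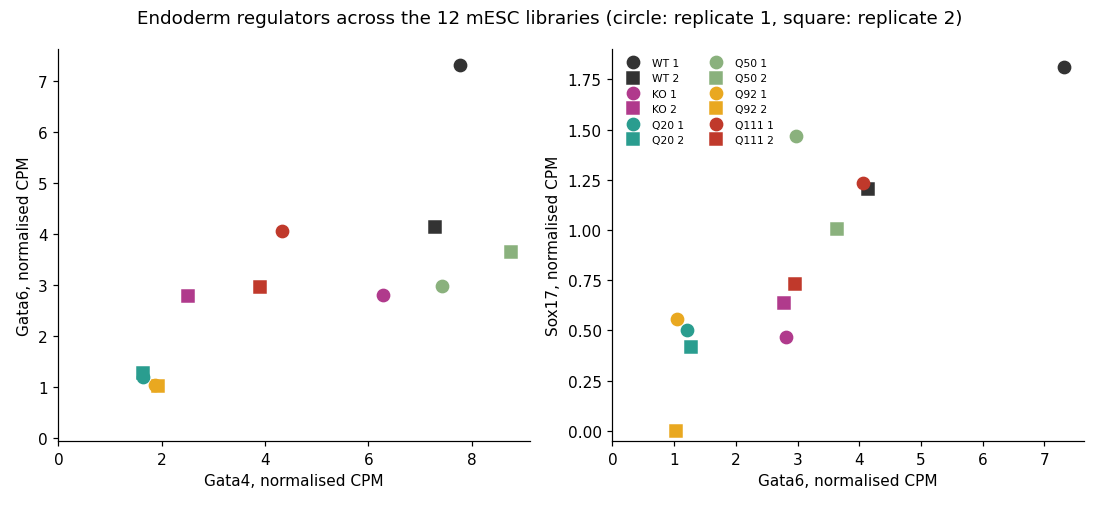
Normalised CPM of Gata6 against Gata4 (left) and of Sox17 against Gata6 (right), with 1 point per mESC library, coloured by genotype, circles for replicate 1 and squares for replicate 2. Both replicates of Q20 and of Q92 lie at the low end of all 3 genes, for Sox17 together with both KO libraries. The WT libraries lie highest for Gata6.

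Between Q20 and WT in mESC, 0 of the 9 tested members were called, as were 0.323% of all genes; 4 members and 1716 of all genes had an unadjusted p under 0.05, and edgeR called 0 members. Gata6 differed by −1.55 ± 0.28 on the log2 scale (limma adjusted p = 0.0693), Gata4 by −1.69 ± 0.34 (limma adjusted p = 0.0886), Sox17 by −0.77 ± 0.28 (limma adjusted p = 0.295) and T by 0.93 ± 0.23 (limma adjusted p = 0.149). Because same-numbered mESC libraries deviated together, the fit with the replicate block is given beside these. With the replicate block 10.6% of all genes and 3 members were called: Gata6 (limma adjusted p = 0.0131) and Gata4 (0.018), lower in Q20, and T (0.0335), higher, whereas Sox17 was at 0.0508. The call of T is not independent of the filter on low values, which it passed through Q20 alone; with no filter and no block its adjusted p was 0.0834 (limma).

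T (chr17:8434423-8442496, plus strand) was near the limit of what was tested. It read 2.05 and 1.35 CPM in Q20, 138 and 103 reads, and 0.220 to 0.922 CPM in the other 10 libraries, with 0.461 and 0.354 in WT. It passed the filter on low values through the Q20 libraries alone, so that it had to differ there. Mixl1 (chr1:180693043-180697034, minus strand) did not pass and was listed at 0 in KO replicate 2, beside 47 reads in KO replicate 1, and reached 0.956 CPM in WT replicate 2. Foxa2 (chr2:148042877-148046969, minus strand), a forkhead factor of definitive endoderm, ranged from 0.132 to 1.26 CPM, and the 2 WT libraries alone, at 0.132 and 1.12 CPM, spanned most of that range.

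Primitive endoderm genes were among those called together with Gata4 and Gata6 under the replicate block, as were the fibroblast genes described below. Without it 0 of 21 were called between Q20 and WT. With it 11 were lower and 1 higher in Q20, where 10.6% of all genes were called, with a list median of −0.79 against −0.04 over all genes. Gata4 and Gata6 are themselves among the 11. Amn, which encodes an endocytic receptor subunit, was lower by −2.0 on the log2 scale (limma adjusted p = 0.00902, replicate block). Dab2, an endocytic adaptor, was at −2.56 (0.0101), Srgn, a proteoglycan core protein, at −2.36 (0.0102), and Lama1, a laminin chain of the basement membrane, at −1.28 (0.0103). Dab2 read 74.1 and 24.6 CPM in WT, 7.50 and 5.46 in Q20 and 5.92 to 20.4 in the other 8 libraries. The list includes Gata4 and Gata6, and in bulk RNA fewer cells of a type and less RNA per cell cannot be told apart.

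Fibroblast genes also differed between these genotypes. Of 18 tested, 3 were higher in Q20 than in WT without the block and 11 with it. Col1a1 was at 0.494 to 1.21 CPM in the WT and KO libraries and at 7.59 to 17.6 in all 8 knock-in libraries, and Acta2 at 1.37 to 3.03 against 30.6 to 96.5. For Col1a1 and Acta2 the knock-in lines as a set thus stood apart from WT and KO, while for Gata4 the Q50 line was as high as WT. The library values of the other fibroblast genes are not given here. The part of feeder RNA in the endoderm gene values was not tested. In the same comparison Wnt3, a streak-inducing ligand, rose by 2.14 on the log2 scale (limma adjusted p = 0.0387), and Dppa3, a naive-state and germ cell gene, by 3.34 (limma adjusted p = 0.0161).

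The repeat length comparisons in mESC called few genes of any kind. Between Q50 and Q20, 0 of 9 members and 0.00719% of all genes were called. Gata4 was higher in Q50 by 1.78 ± 0.34 on the log2 scale (limma adjusted p = 0.313), and with the replicate block, where 0.984% of genes were called, it was the 1 member called (limma adjusted p = 0.0461). Gata6 was at 0.94 (limma adjusted p = 0.575) and T at −0.62 (limma adjusted p = 0.715). Between Q92 and Q20, 0 members and again 0.00719% of genes were called, and T was at −0.64 (limma adjusted p = 0.8).

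Between Q111 and Q20, limma called 0 members and 0% of all genes. At an unadjusted p under 0.05 there were 374 genes, 3 of them members, and edgeR called 0 with 345 genes at that level. Gata4 was at 0.95 and Gata6 at 1.00 on the log2 scale, and T at −0.61, each with a limma adjusted p of 0.999. The slope on repeat length across Q20 to Q111 likewise called 0 members and 0% of genes in limma, with 358 genes and 0 members at an unadjusted p under 0.05, and edgeR called 0 with 371. The endoderm regulators did not order by length: Gata4 was low in Q20, high in Q50, low in Q92 and intermediate in Q111.

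KO against WT in mESC called 0 members by limma and by edgeR, with 0.0144% of all genes called. At an unadjusted p under 0.05 there were 553 genes and 2 members, Gata6 at −0.78 ± 0.28 on the log2 scale and Sox17 at −0.68 ± 0.28, each with a limma adjusted p of 1. For both genes the 2 libraries labelled KO lay below the 2 WT libraries, and 1 of them, KO 1, had Htt at the WT level. A test over all 6 genotypes called 0 members and 0.201% of genes. With the replicate block 8.67% of genes and 2 members were called, Gata6 (limma adjusted p = 0.0263) and Gata4 (limma adjusted p = 0.032).

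The genes whose mESC levels were most like each member's, by Pearson's r of log2(CPM + 1) over the 12 libraries, differed between the groups of members. For Lefty1 they included Radil (0.99) and Stra6l (0.97), and for Lefty2 Tbcel (0.93), Fbxl20 (0.91) and Peli3 (0.91). Eomes was most like Mcc (0.97), Skor1 (0.95) and Esyt1 (0.95), and Fgf5 most like Gstm3 (0.96), Slc47a2 (0.94) and Kbtbd2 (0.93). Gata6 was most like Nostrin (0.93), Srgn (0.92) and Iqca (0.90), and Gata4 most like Cacfd1 (0.88), Srgn (0.85) and 1700010I14Rik (0.85). Srgn, of the primitive endoderm list, appeared for both GATA genes. For Lefty1, 219 genes had an r over 0.9 and for Eomes 109, and for Gata4 there were 0. These r include the shift between replicate numbers, which 43.3% of genes share, and take no account of it: r between Lefty1 and Eomes was −0.93 over the 12 libraries and −0.69 within replicate numbers.

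In NPC the members were nearly silent outside a few lines. Sox17 was not analysed here, and Lefty1, Lefty2, Mixl1, Gata6 and Foxa2 stayed under 1 CPM in every library, with Lefty1 at 0.0387 to 0.626 CPM. T, Eomes, Fgf5 and Gata4 passed the filter, each only through the 1 or 2 genotypes in which it was high.

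The Q20 progenitors held T, Eomes and Fgf5 together. T read 5.63 and 3.84 CPM in Q20, 2.25 and 2.19 in Q92, and 0.106 to 0.503 in the other 8 libraries. Eomes read 3.27 and 6.86 CPM in Q20 and 0 to 0.772 elsewhere, and Fgf5 1.30 and 1.55 in Q20 and 0 to 0.363 elsewhere. Q20 was the top genotype for all 3, with no overlap. Eomes and Fgf5 passed the filter on low values through the Q20 libraries alone and T through Q20 and Q92, so that their calls with the filter are not independent of it, and the tests given for them are those of the fit with no filter, over every gene of the table. There the differences of Q20 from WT were 2.07 ± 0.16 for T (limma adjusted p = 5.14e-05), 2.25 ± 0.25 for Eomes (limma adjusted p = 0.000553) and 1.14 ± 0.10 for Fgf5 (limma adjusted p = 0.000151) on the log2 scale. With the filter 14.5% of all genes were called in this comparison. With edgeR on the recovered reads Fgf5 was not called (adjusted p = 0.151), and with the Q20 and WT libraries alone in the limma fit Eomes was not (adjusted p = 0.068). Gata4 was called lower in Q20, by −0.74 (limma adjusted p = 0.0381), with 0.112 and 0.107 CPM against 0.490 and 1.30 in WT, and not without WT replicate 2 (−0.43, limma adjusted p = 0.0817) or without either Q20 library (0.15 to 0.153). The replicate block (0.0526) and the 4 libraries alone (0.256) lost that call too.

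**Figure D5:**
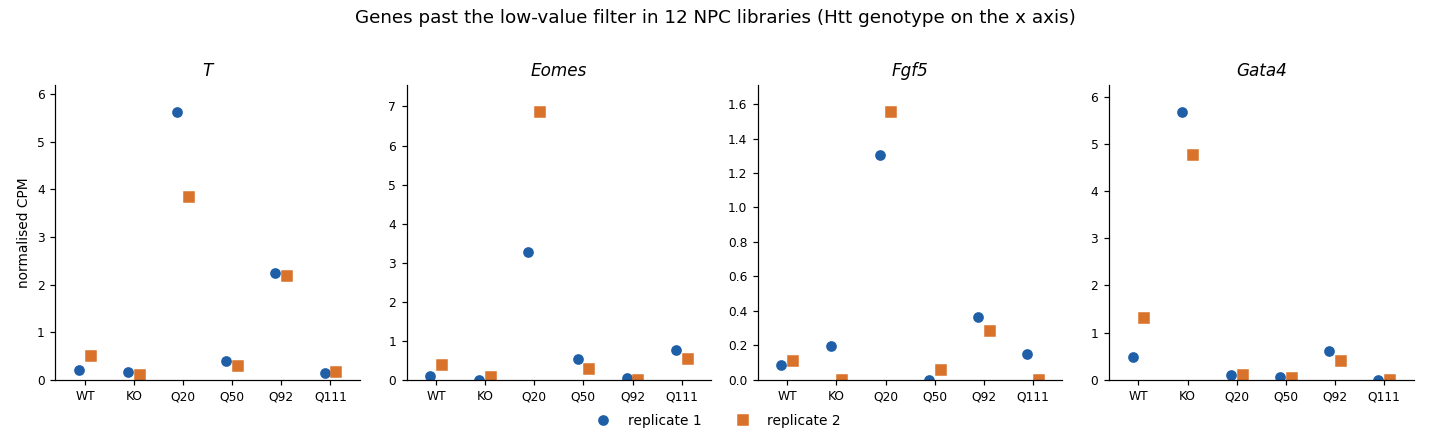
Normalised CPM (vertical axis, from 0, a separate scale in each panel) of the 4 genes that passed the filter in NPC, by Htt genotype, with 1 point per library (circles replicate 1, squares replicate 2). T, Eomes and Fgf5 are highest in both Q20 libraries, and Gata4 is highest in both KO libraries at 5.68 and 4.76 CPM.

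Core pluripotency transcripts stood beside these genes in the Q20 progenitors, while of the naive list Nanog was the single call of 8 tested. Lin28a read 70.8 and 69.1 CPM there and 0.0353 to 0.405 in the other 10 libraries, Sall4 47.1 and 54.6 against 0 to 0.135, and Nanog 13 and 13.7 against 0.19 to 1.63. All 4 tested core pluripotency genes, Pou5f1 included, rose against WT, with a list median of 5.64 against −0.02 over all genes. Pou5f1, Lin28a and Sall4 stayed under 1 CPM outside Q20 and passed the filter on low values through the Q20 libraries alone. Their calls and the list median are thus not independent of the filter, and nothing is read from that count. Of 19 primed and formative genes 8 rose and 1 fell, and of all genes 14.5% were called in either direction in this comparison. The same share stands beside the fibroblast and neural counts below. Fgf5, which passed the filter through Q20 alone, is among the 8, so that count is not independent of the filter. Dnmt3b, a DNA methyltransferase, is also among the 8, at 210.1 and 241 CPM in Q20 against 3.61 to 7.64 elsewhere. Esrrb, a naive-state factor, was at −0.86 on the log2 scale (limma adjusted p = 0.38) and Klf4 at −0.44 (limma adjusted p = 0.525). Fibroblast genes differed as well, with 8 of 19 higher and 0 lower, led by Col1a2 at 4.24 (limma adjusted p = 2.57e-06), Col3a1 at 3.18 (limma adjusted p = 7.46e-06) and Col6a1 at 3.90 (limma adjusted p = 1.28e-05). Col1a2 was higher still in Q50, at 153 and 159 CPM against 33.1 and 25.4 in Q20. Of 14 neural lineage genes 3 rose, among them Gfap at 4.00, and 4 fell, among them Zic1 at −2.83 and Olig2 at −2.72, and their summed level was 3825 and 4118 CPM in Q20 and 4042 to 8053 in the other NPC libraries. The part of other cell types in the T, Eomes and Fgf5 values was not tested.

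Against Q20, T, Eomes and Fgf5 were lower in each longer allele. With the filter these 3 were called in every such comparison, but since they passed it through Q20, nothing is read from that count; the share of all genes called was 18.8% between Q50 and Q20, 25.8% between Q92 and Q20 and 28.3% between Q111 and Q20. All of these comparisons, and that of Q20 with WT, share the same 2 Q20 libraries. T differed by −2.09 in Q50, −0.82 in Q92 and −2.30 in Q111 on the log2 scale (limma with no filter, adjusted p = 4.78e-05, 0.00681 and 2.83e-05). The call of T between Q92 and Q20 was kept in only 4 of 10 alternative settings. The Q92 value of T was −0.20 after quantile normalization (limma adjusted p = 0.426), and it was not called without Q20 replicate 1 or either Q92 library (0.0549 to 0.06). Eomes differed by −2.04, −2.50 and −1.81 and Fgf5 by −1.24, −0.88 and −1.18 in the same order, with adjusted p of 8.95e-05 to 0.00154 in the limma fit with no filter. The Q92 value of Fgf5 was −0.25 after quantile normalization (limma adjusted p = 0.24) and was not called by edgeR (adjusted p = 0.268). In edgeR neither Eomes nor Fgf5 was called between Q50 and Q20 (adjusted p = 0.0543 and 0.0694) or between Q111 and Q20 (0.0635 and 0.0741).

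Over the knock-in lines 0 of the 4 tested members followed repeat length in NPC, by limma or by edgeR, where limma called 22% of all genes and 2 members had an unadjusted p under 0.05. Eomes had an adjusted p of 0.0741 and was called without Q50 replicate 2 (limma adjusted p = 0.0499). A test over all 6 genotypes called all 4, each of which passed the filter through its high genotypes, and 38% of all genes. With no filter it called 6 of the 9 members in the table. The share of all genes called with no filter is not given here, so nothing is read from that count. Without the Q20 line, an alternative chosen after seeing the data, 2 remained called, Gata4 (limma adjusted p = 0.0011) and T (limma adjusted p = 0.00144), whereas Eomes (0.0528) and Fgf5 (0.243) were not.

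Gata4 was the 1 member called between KO and WT in NPC, where 1.42% of all genes were called. It read 5.68 and 4.76 CPM in KO, 576 and 540 reads, against 0.490 and 1.30 CPM in WT, 28 and 106 reads. The other NPC libraries held 0 to 0.611 CPM, so KO was the highest genotype with no overlap. The difference was 1.74 ± 0.19 on the log2 scale (limma adjusted p = 0.00631, and 0.00479 with no filter). Gata4 passed the filter on low values only through the KO libraries and WT replicate 2. Its call with the filter is thus not independent of it, and nothing is read from the counts of called genes that include it. With no filter Foxa2 was called as well, at 0.44 (limma adjusted p = 0.00938), with 0.601 and 0.521 CPM in KO against 0.123 and 0.184 in WT. Gata4 was not called by edgeR (adjusted p = 0.0863) or by limma on the 4 libraries alone (adjusted p = 0.646). Gata6 was at 0 reads in both KO libraries and at 0.0526 and 0.0614 CPM in WT, and the primitive endoderm list had Gata4 as its single call among 13 tested genes.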

How the data were processed

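The authors deposited 1 table of normalised CPM signal per cell type, with 12 libraries each. Per the submitters' processing notes, STAR, CASAVA 1.8 and GRCm38.p6 were used; the counting tool and the use of strand are not given in the sources used here. Total RNA was read as paired 75-base reads, per the labels' protocols. In each column 100% of values were whole multiples of 1 step (tolerance 0.1 read), which gave back the reads, and the scaling equalled TMM factors recomputed with edgeR 4.0.16. Column totals were 948363 to 1080734 in mESC and 900342 to 1056443 in NPC, so the deposited signal is not plain CPM.

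Log2(CPM + 1) was fitted with limma 3.58.1 (trended moderation, R 4.3.3), with all 12 libraries of a table and 6 genotype means, over 13916 mESC and 13206 NPC genes with at least 1 CPM in at least 2 libraries. Fold changes on this scale understate those of low genes. Groups and replicate numbers came from the sample titles. Alternatives were the replicate block, edgeR's quasi-likelihood test on the recovered reads, pseudocount 0.1, no filter, quantile normalization, the libraries of both groups alone, 89 repeats for Q92, line means, and each library left out. The scripts were tested on simulated data. The pairing check correlated the replicate differences of 15 pairs of genotypes: r was 0.25 to 0.547 in mESC, all over 0.1, so the numbers were taken to pair those libraries, and −0.049 to 0.467 in NPC, so there they were not.

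The members and lists were chosen with earlier results of these data known. Named genes are all members, up to 4 called genes per list and mESC comparison by smallest p, the 3 genes most like each member with a mean of at least 1 CPM, and Htt; further names came after values were seen. A few genes that this rule names are not reported here. With 2 samples per genotype, precision is limited by their number, and intervals for 0 counts (3 reads) cover counting error only. Gene positions are from GENCODE M21.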

Additional observations from a re-analysis of the deposited data

Results flagged for a closer look

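Gata4 was ordered oppositely in the 2 cell types under the same contrast, with no overlap between the groups in either, and these differences between cell types were not tested. The libraries labelled KO, of which KO 1 had Htt at the WT level, lay below WT in mESC (−0.76 on the log2 scale) and above WT in NPC (1.74). Q50 lay above Q20 in mESC (1.78) and below it in NPC (−0.084), where all 4 libraries were under 0.12 CPM. Q111 lay above Q20 in mESC (0.95) and below it in NPC (−0.15), where both Q111 libraries were at 0 reads.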

How the results depend on the processing

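The number of members called stayed within 1.5 times its first value in 168 of 182 alternative settings over 15 comparisons, several of which began at 0. Log2 changes were recomputed for the 33 member comparisons with an unadjusted p under 0.05 in the first fit, and none changed sign in 368 settings. These were picked for their differences in the same libraries, so nothing is read from the unchanged signs. In mESC the replicate block raised the count from 0 to 3 for Q20 against WT, T among them, which passed the filter through Q20 alone, to 1 for Q50 against Q20 and to 2 for the test over genotypes, and quantile normalization raised Q20 against WT to 1. In NPC the replicate numbers did not pair the libraries, and the replicate block left the number called at 1 for KO against WT and moved Q20 against WT from 4 to 3. For KO against WT in NPC the count was 0 with the 4 libraries alone, 0 with edgeR and 2 with no filter. For Q20 against WT it was 2 with the 4 libraries alone. For Q50 against Q20 edgeR gave 1, and with no filter Q92 and Q111 against Q20 gave 5 each. The shares of all genes called with no filter are not given here, so nothing is read from the counts with no filter. The repeat length trend gave 1 with no filter and 0 to 1 with each library left out in turn. Without the Q20 line, chosen after seeing the data, the test over genotypes gave 2. The cause was not tested, apart from the larger number of members tested with no filter. Members under 1 CPM rest on few reads, which limits their precision.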
